A study of Mus musculus with 11 samples.

Results

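Genes that define resident alveolar macrophages, the phagocytes that live in the air spaces of the lung, were compared between control mice and mice at the end of, or after, a course of injections of CpG 1826, an oligonucleotide ligand of the DNA sensor Tlr9 that is used here to model macrophage activation syndrome (MAS). The 10 genes are Siglecf, Marco, Itgax, Itgam, Mrc1, Car4, Chil3, Krt19, Bhlhe41 and Ear6. They were chosen by symbol from the 19505 distinct gene symbols of an Affymetrix array, and each of the 10 had 1 transcript cluster, the set of probes that stands for a gene. All mice were female C57BL/6J animals, bought at an age of 6 weeks, and all received 5 injections over 10 days. Injections were of PBS in the control group (n = 4) and of CpG 1826 in the acute (n = 3) and resolution (n = 4) groups. Lungs were washed on day 10 in the control and acute groups and on day 30 in the resolution group. The washed-out cells were purified by adherence, and there was 1 array for each sample. The labels call the samples biological replicates without saying whether animals were pooled. No PBS group of day 30 was analysed here. CpG and the day of lavage, with any difference in age that goes with that day, therefore cannot be told apart in resolution versus control. In resolution versus acute both groups received CpG, and the time since the course cannot be told apart from the day of lavage and age.

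Alveolar macrophages arise from fetal monocytes and keep themselves in the lung by dividing in place, under the instruction of GM-CSF, TGF-beta and the nuclear receptor gene Pparg. They clear surfactant and inhaled particles. Their surface is marked by the lectin Siglecf, the scavenger receptor Marco, the mannose receptor Mrc1 and the integrin chain Itgax (CD11c), while the integrin chain Itgam (CD11b) is low in the resting resident cell and high on monocytes, neutrophils and recruited macrophages. The transcription factor Bhlhe41, with its relative Bhlhe40, maintains their identity and self-renewal.

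Of the 10 identity genes, 3 changed on day 30 and 7 did not pass the test in any comparison. Over all genes tested, 18.6% passed in resolution versus control. Krt19 rose 3.43-fold from control to resolution, Bhlhe41 fell 2.69-fold and Ear6 fell 2.45-fold. Siglecf, Marco, Itgax, Mrc1, Car4 and Chil3 stayed at high intensities on every array. Itgam was above background on 8 of 11 arrays, highest in control replicate 4. All levels below are log2(intensity + 1), all differences are on this log2 scale, and a gene is said to rise, fall or change where the adjusted p of limma was under 0.05. Because the samples are bulk RNA, fewer cells of a type and less RNA per cell cannot be told apart.

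The arrays were alike in signal, with medians between 51.4 and 57.0 intensity units and between 8731 and 8952 genes above background. Background is the 90th percentile of the 23 antigenomic control probe sets of an array, which match no mouse sequence, and lay between 6.12 and 6.24. Control replicate 4 and, in fewer markers, acute replicate 1 stood apart. On the third principal component of all tested genes control replicate 4 lay at -34.93, and the other 10 arrays lay between -7.26 and 9.22. Its mean level over 9 neutrophil markers was 8.03, against 6.83 to 7.19 in the other controls, and its mean over 6 eosinophil markers was 5.74, against 4.46 to 4.82. Not all neutrophil markers were high in control replicate 4. Cxcr2 was 7.97, against 7.99 to 8.25 in the other controls. Csf3r, at 9.90, lay within their 9.49 to 9.94. Mmp9, below background on every array, was also lower than in the other controls, and the rest were higher. Of the 6 eosinophil markers 3 were above background in control replicate 4, namely Prg2, Ccr3 and Alox15, and 0 were above background on the other 10 arrays. Its summed intensity was also above the other controls for 7 endothelial markers (620 against 368 to 421, with 2 of the 7 above background). These 2 were Cdh5, at 7.42 against 4.18 to 4.39 in the other controls, and Vwf, at 8.19 within their 7.73 to 8.21. For 3 B cell markers the summed intensity of control replicate 4 was 127, against 58.3 to 66.3, with 0 of the 3 above background. In acute replicate 1 the red cell gene Alas2 was 15.15, against 5.54 to 9.26 on the other arrays, and without that array 1065 rather than 1755 genes passed in resolution versus acute. Differences of the identity genes that moved by over 1.5 times without control replicate 4 are given both ways.

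**Figure D1:**
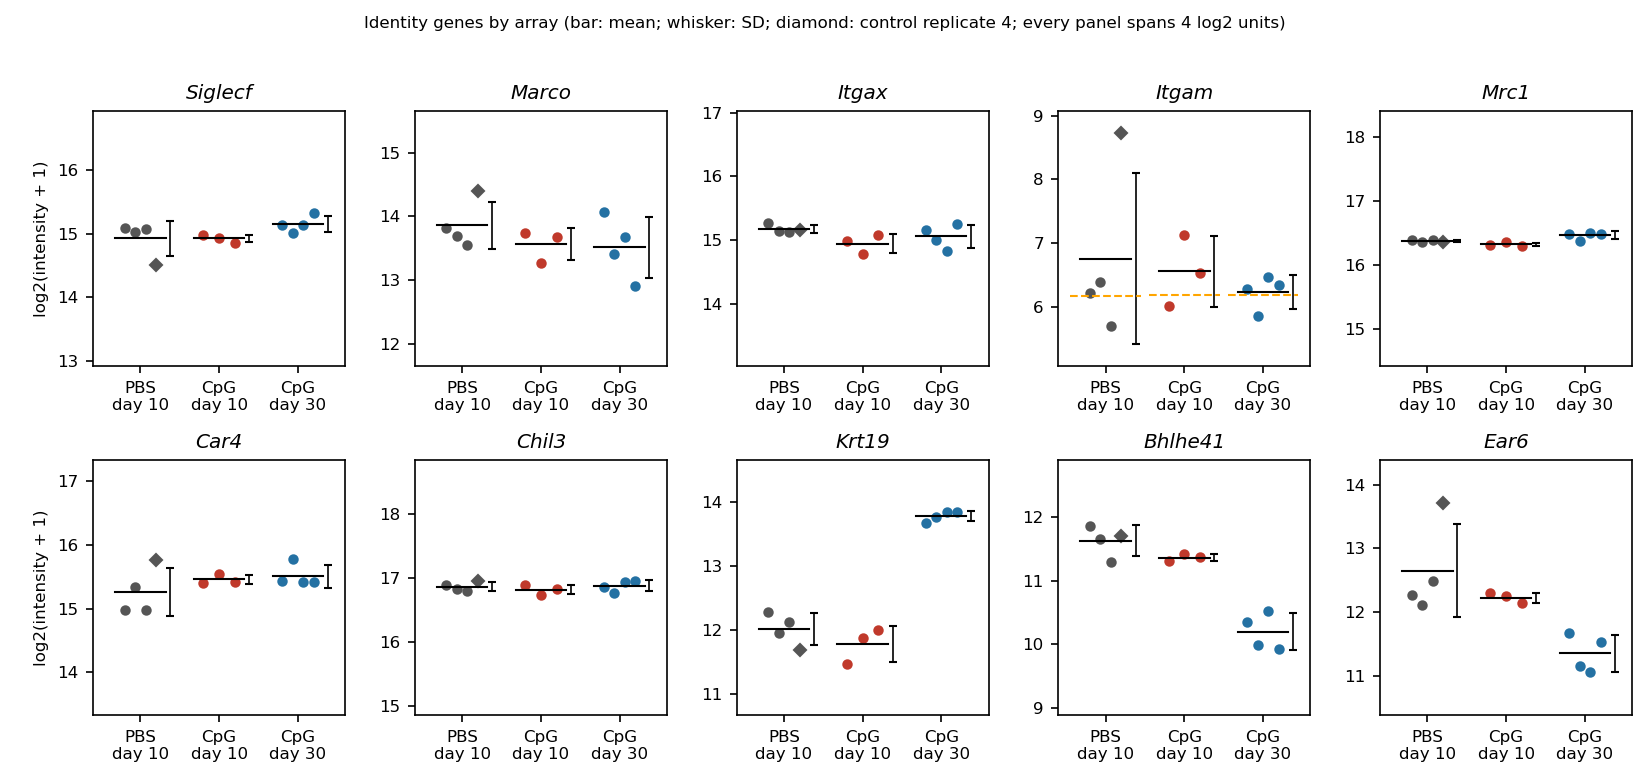
The level of each identity gene, log2(intensity + 1), on every array of the control (PBS, day 10, n = 4), acute (CpG, day 10, n = 3) and resolution (CpG, day 30, n = 4) groups. Horizontal bars are group means, whiskers are SD, diamonds mark control replicate 4, and the dashed line in the Itgam panel is the array background; the resolution arrays stand apart from the other 7 arrays in Krt19, Bhlhe41 and Ear6.

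Acute versus control asks whether the macrophages had lost their resident identity at the end of the CpG course. Of the 10 identity genes 0 rose and 0 fell by limma, beside 0.239% of the 12143 genes tested, and 0 of the 10 had an unadjusted p under 0.05. The count was 0 under each of the 20 alternative settings as well. The median difference of the 10 was -0.22, with 9 negative (Siglecf and Itgam changed sign under some settings), beside a median of -0.00 over all genes tested. Without control replicate 4 that median was -0.092, with 8 negative. The groups did not overlap for 2 of the 10, Itgax and Mrc1, beside 10.1% of all genes. Resolution versus control asks what remained or appeared by day 30. Krt19 was the 1 identity gene that rose, beside 9.60% of genes tested, and Bhlhe41 and Ear6 were the 2 that fell, beside 9.0%. In all 3 of 10 passed, where 18.6% of all genes did. The same 3 were those without overlap between the groups, beside 22.7% of all genes. In resolution versus acute, Krt19 rose, beside 7.77% of genes, and Bhlhe41 fell, beside 6.69%, which makes 2 of 10 where 14.5% of all genes passed. The groups of that comparison did not overlap for 5 of the 10, beside 26.3% of all genes. These comparisons share samples, so they are not independent of each other.

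**Figure D2:**
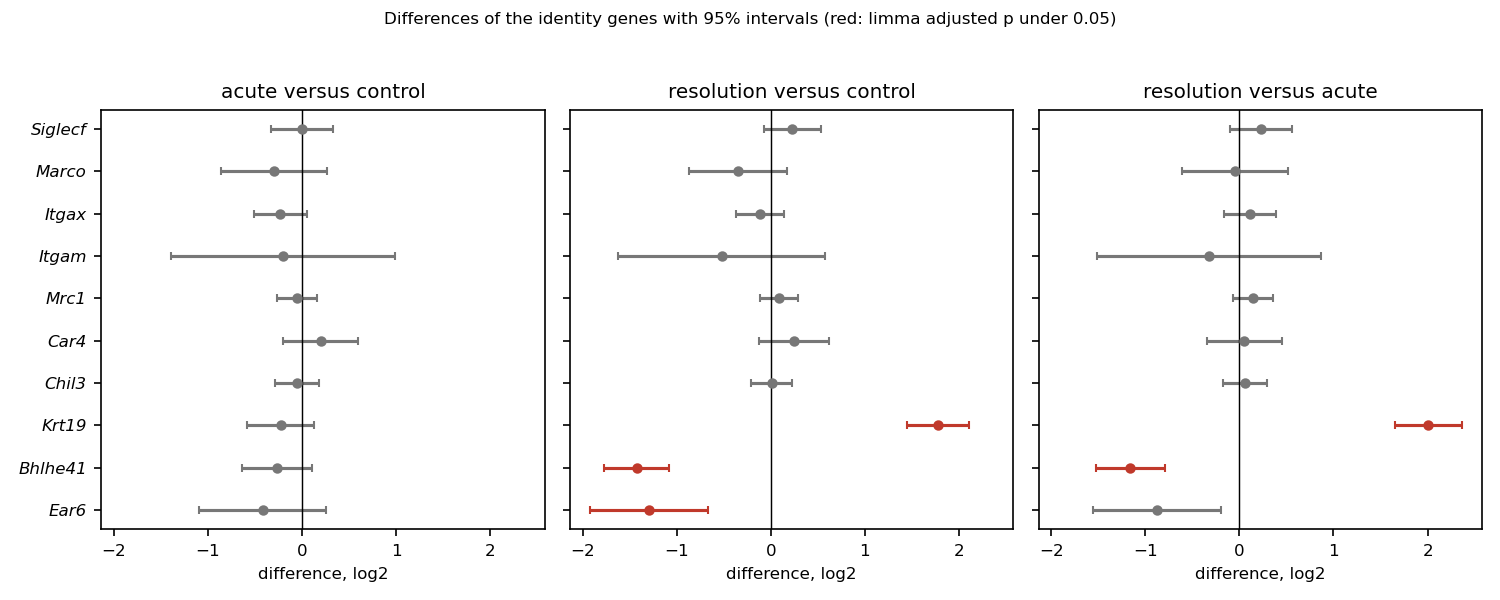
Differences of the 10 identity genes in each comparison on the log2 scale (horizontal axis), with 95% confidence intervals from limma; red points had an adjusted p under 0.05. In acute versus control every interval includes 0, while Krt19 at 1.78, Bhlhe41 at -1.43 and Ear6 at -1.29 stand away from 0 in resolution versus control.

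Krt19 encodes keratin 19, an intermediate filament protein of simple epithelia that is also among the genes that set mouse alveolar macrophages apart from other macrophages. Its level was 12.28, 11.95, 12.13 and 11.69 in control replicates 1 to 4. It was 11.46, 11.88 and 12.01 in the acute arrays and 13.68, 13.78, 13.85 and 13.85 in the resolution arrays. All resolution arrays lay above all others, and the control and acute arrays overlapped. Krt19 rose by 1.78 ± 0.15 (SE) from a mean of 12.01 ± 0.25 (SD, n = 4) in control to 13.79 ± 0.08 (SD, n = 4) in resolution (limma adjusted p = 9.23e-06). The rise from acute, at 11.78 ± 0.29 (SD, n = 3), was 2.01 ± 0.16 (SE), or 4.02-fold (limma adjusted p = 1.41e-05). By the size of the difference from acute, 0.609% of all tested genes moved further. Acute and control differed by -0.23, with a 95% interval of -0.59 to 0.13. That difference was -0.068 without acute replicate 1 and -0.14 without control replicate 1.

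Epithelial transcripts were measured in the same arrays, since Krt19 is also a gene of the airway lining. Over 16 lung epithelium markers the mean level of an array was 6.96 to 7.21 in resolution, 7.44 to 7.80 in control and 8.38 to 8.90 in acute, so it was lowest in the group where Krt19 was highest. Summed intensities of the list, which overlapped between resolution and control, were 13047 to 15131 in resolution, 12245 to 21990 in control and 26078 to 45341 in acute arrays. In resolution arrays the sum was mostly that of Cdh1, at a level of 13.26 to 13.64, beside 12.68 to 13.66 in control arrays. The overlap rested on this gene. Of the 14 epithelial markers tested 0 rose and 4 fell in resolution versus control, beside 9.60% and 9.0% of all genes tested. Scgb1a1, the club cell secretoglobin, fell by 1.44 ± 0.34 (SE) and Bpifa1, an airway surface protein, by 1.84 ± 0.39 (SE). The differences of 4 of the 14 were positive, none of which passed. Among these were the adhesion genes Cdh1 (E-cadherin), at 0.38 ± 0.18 (SE, limma adjusted p = 0.183), and Epcam, at 0.28 ± 0.17 (SE, limma adjusted p = 0.298). Cdh1 passed without control replicate 4 (difference 0.58, limma adjusted p = 0.00926). The part of epithelial cells in the Krt19 values was not tested. The keratin partners of simple epithelia, Krt8 and Krt18, were below background on every resolution array, with means of 5.10 ± 0.25 and 4.81 ± 0.17 (SD, n = 4). Krt18 was below background on all 11 arrays and Krt8 on all but 1 acute array. Krt79, a keratin listed among alveolar macrophage genes, rose by 0.62 ± 0.15 (SE) from control to resolution (limma adjusted p = 0.0138). Krt80, a further keratin gene, differed by 0.88 ± 0.29 (SE, limma adjusted p = 0.0543) and passed in 6 of the 20 alternative settings, with the lowest adjusted p at 0.0288 without resolution replicate 1.

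**Figure D3:**
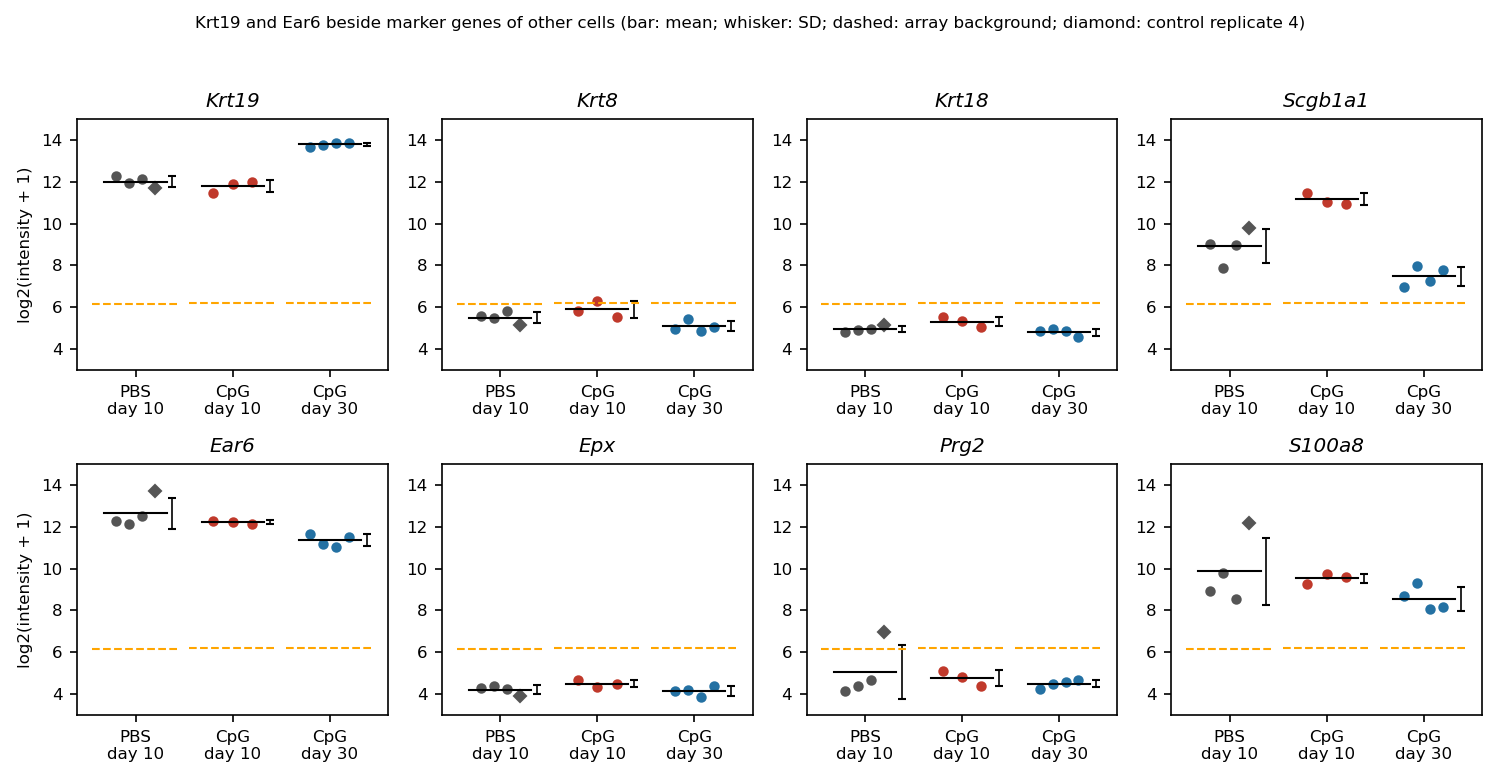
Levels, log2(intensity + 1), of Krt19 beside Krt8, Krt18 and the club cell gene Scgb1a1 (top), and of Ear6 beside the eosinophil genes Epx and Prg2 and the neutrophil gene S100a8 (bottom), on each array of the 3 groups; bars are means, whiskers SD, dashed lines the mean array background, and diamonds control replicate 4. Scgb1a1 has its lowest mean, 7.49, on day 30, where Krt19 is highest, and Ear6, Prg2 and S100a8 are each highest in control replicate 4.

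Bhlhe41 encodes a basic helix-loop-helix repressor that binds E-box sequences. Its level was 11.86, 11.65, 11.29 and 11.71 in control replicates 1 to 4. It was 11.31, 11.41 and 11.37 in the acute arrays and 10.36, 10.00, 10.52 and 9.93 in the resolution arrays. Each resolution array lay below each of the other 7. Bhlhe41 fell by 1.43 ± 0.16 (SE) from 11.63 ± 0.24 (SD, n = 4) in control to 10.20 ± 0.28 (SD, n = 4) in resolution (limma adjusted p = 5.82e-05). From acute, at 11.36 ± 0.05 (SD, n = 3), it fell 2.24-fold, by 1.16 ± 0.17 (SE, limma adjusted p = 0.000704). Acute and control differed by -0.27, with a 95% interval of -0.63 to 0.10. Bhlhe40, its closest relative and partner in this cell type, was 13.72 ± 0.10 (SD, n = 4) in control, 13.50 ± 0.15 (SD, n = 3) in acute and 13.40 ± 0.22 (SD, n = 4) in resolution. It differed between resolution and control by -0.33, with a 95% interval of -0.61 to -0.04, and did not pass the test over all genes (limma adjusted p = 0.104), though it did without resolution replicate 3 (0.0499). Of 4 further helix-loop-helix genes of the E-box binding MiT family 2 fell, named here after their values were seen. Mitf fell by 1.38 ± 0.17 (SE) and Tfe3 by 0.78 ± 0.14 (SE), both in resolution versus control. Over all genes tested, 9.0% fell in that comparison.

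The upstream sequence of Bhlhe41 is shown because the gene carries in it a copy of the kind of site that its own protein family binds. The window holds the 250 bases before the start site in RefSeq on build GRCm38.p6, chr6:145865421-145865670, on the minus strand. Capitals mark the E-box CACGTG.
Bhlhe41: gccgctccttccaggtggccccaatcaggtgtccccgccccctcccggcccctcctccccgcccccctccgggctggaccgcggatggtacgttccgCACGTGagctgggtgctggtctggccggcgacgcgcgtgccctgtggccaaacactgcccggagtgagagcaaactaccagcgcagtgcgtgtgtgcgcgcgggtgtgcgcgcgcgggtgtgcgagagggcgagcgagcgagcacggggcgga
The E-box begins 153 bases before the start site. It was present in 6.02% of 32851 upstream windows of this length, searched on both strands. Windows were found for 9 of the 10 identity genes, and Bhlhe41 was the 1 gene of those 9 with an E-box. The AP-1 letters TGANTCA, on either strand, occurred in 1 of the 9, Itgax, and in 6.75% of all windows. The PU.1 letters GAGGAAG, on either strand, occurred in 4 of the 9, Siglecf, Marco, Itgam and Mrc1, and in 10.6% of all windows. The TATA letters TATAAA occurred in 0 of the 9 and in 12.4% of all windows. These motifs do not overlap one another in the 9 windows. A match of letters is a description of the window and not a measured binding site.

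Ear6 encodes a secreted ribonuclease of the eosinophil-associated family, whose members are expressed in eosinophils and in alveolar macrophages. Its level was 12.27, 12.11, 12.49 and 13.71 in control replicates 1 to 4. It was 12.29, 12.25 and 12.14 in the acute arrays and 11.67, 11.15, 11.05 and 11.53 in the resolution arrays. The resolution arrays lay below all others, and control replicate 4 lay above all others. Ear6 fell by 1.29 ± 0.29 (SE) from 12.65 ± 0.73 (SD, n = 4) in control to 11.35 ± 0.29 (SD, n = 4) in resolution (limma adjusted p = 0.00759). Without control replicate 4 the control mean was 12.29 ± 0.19 (SD, n = 3) and the difference -0.94 (limma adjusted p = 0.00246). Resolution and acute differed by -0.88 ± 0.31 (SE), which did not pass (limma adjusted p = 0.0814). It passed without control replicate 4 (limma adjusted p = 0.00406), an array outside this comparison that enters the shared estimate of the spread, and also when the acute and resolution arrays were fitted alone (limma adjusted p = 0.00882). It further passed with the replicate block (difference -1.08, limma adjusted p = 0.0220) and with an intensity trend (limma adjusted p = 0.0492). Acute and control differed by -0.42, with a 95% interval of -1.09 to 0.26, and by -0.06 without control replicate 4.

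Eosinophil genes were near background in nearly all arrays. Epx, the eosinophil peroxidase, was below background on all 11 arrays. Over the 6 eosinophil markers the summed intensity was 159 to 179 in resolution, 189 to 215 in acute and 136 to 173 in the control arrays other than replicate 4, where it was 418. Prg2, the major basic protein of eosinophil granules, stood at 6.95 in that array, the 1 array where it was above background. The part of these cells in the high Ear6 level of control replicate 4 was not tested.

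Ear10, a relative with a cluster of its own, did not pass in any comparison. It was 12.69 ± 0.10 (SD, n = 4) in control, 12.73 ± 0.03 (SD, n = 3) in acute and 12.90 ± 0.22 (SD, n = 4) in resolution, and resolution differed from control by 0.21, with a 95% interval of -0.06 to 0.48. Ear14 was below background on all 11 arrays. Genes of this family are close copies of one another. The annotation lists 2 transcripts for the Ear6 cluster, of which 1 was found in the RefSeq table, and the gene it belongs to there was not checked. How far the probes separate Ear6 from its copies was not tested. Rnase6, a ribonuclease of the wider family, rose by 0.58 ± 0.16 (SE) from control to resolution (limma adjusted p = 0.0257). Scaling to a common median ended this call (limma adjusted p = 0.0518), as did leaving out control replicate 2 (0.0741), resolution replicate 2 (0.0584) or resolution replicate 3 (0.0622).

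The upstream windows of Ear6 and Ear10 are set side by side because Ear6 passed in resolution versus control and Ear10, a close copy, did not; the difference between the 2 genes was not tested. Both come from RefSeq on build GRCm38.p6 and hold the 250 bases before the start site. Ear6 lies at chr14:51853518-51853767 on the plus strand and Ear10 at chr14:43923597-43923846 on the minus strand. Capitals mark the longest run of letters that both share.
Ear6: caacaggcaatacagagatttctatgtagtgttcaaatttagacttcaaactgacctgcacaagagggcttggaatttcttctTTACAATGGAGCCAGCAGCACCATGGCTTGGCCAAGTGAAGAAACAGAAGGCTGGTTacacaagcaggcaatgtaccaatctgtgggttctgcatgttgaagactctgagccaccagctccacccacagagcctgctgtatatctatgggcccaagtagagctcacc
Ear10: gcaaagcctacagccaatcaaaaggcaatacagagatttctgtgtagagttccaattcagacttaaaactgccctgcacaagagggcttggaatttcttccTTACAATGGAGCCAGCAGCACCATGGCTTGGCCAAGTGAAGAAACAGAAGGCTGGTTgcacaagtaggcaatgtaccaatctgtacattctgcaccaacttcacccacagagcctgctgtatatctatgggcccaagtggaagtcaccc
The shared run is 57 bases long. In a global alignment the windows had 79.9% identical columns, of 269 in all. The window of Ear10 was closer to those of Ear1 (91.7%) and Ear2 (91.0%) than to that of Ear6. Neither window holds any of the 4 motifs searched.

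The surface receptors of resident cells differed little between groups. Siglecf, a sialic acid binding lectin also found on eosinophils, was 15.09, 15.02, 15.07 and 14.51 in control replicates 1 to 4. It was 14.98, 14.93 and 14.86 in acute and 15.14, 15.01, 15.13 and 15.33 in resolution arrays. Control replicate 4 was the lowest of all 11 arrays, and the resolution arrays all lay above the acute arrays. Resolution differed from acute by 0.23, with a 95% interval of -0.10 to 0.55, and from control by 0.23, with an interval of -0.07 to 0.53. The difference from control was 0.093 without control replicate 4. Acute and control differed by -0.00, with an interval of -0.33 to 0.33, and by -0.14 without control replicate 4. Mrc1, the mannose receptor, was among the brightest clusters and spanned 0.20 log2 units over the 11 arrays, from 16.30 to 16.51. It differed between resolution and control by 0.09, with an interval of -0.11 to 0.29, and between resolution and acute by 0.14, with an interval of -0.07 to 0.36. Marco, a scavenger receptor for particles and bacteria, was the most variable of the 3. It ranged from 13.55 to 14.39 in control, from 13.27 to 13.74 in acute and from 12.91 to 14.06 in resolution arrays, so all groups overlapped. Its difference from control was -0.30 in acute and -0.35 in resolution, with a 95% interval of -0.87 to 0.17 for the latter. Without control replicate 4, the highest array, these were -0.12 and -0.17. Without acute replicate 2 the acute difference was -0.16, and without resolution replicate 4 the resolution difference was -0.15.

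Some relatives of these receptors passed in resolution versus control. Of 6 relatives of Siglecf 3 rose and 0 fell, beside 9.60% and 9.0% of all genes tested. Siglece, named after its values were seen, rose by 1.40 ± 0.19 (SE, limma adjusted p = 0.000252) and passed under each of the 20 alternatives. Siglec1 (sialoadhesin) rose by 0.58 ± 0.16 (SE) and Cd33 by 0.62 ± 0.17 (SE) from control to resolution. The call of Siglec1 (limma adjusted p = 0.0218) ended without control replicate 4 (0.0503) or resolution replicate 4 (0.0599). That of Cd33 (limma adjusted p = 0.0236) was lost on leaving out control replicate 1 (0.0683), resolution replicate 3 (0.0513) or resolution replicate 4 (0.0632). Colec12, a scavenger receptor of the class of Marco, fell 3.22-fold in resolution versus control, from 10.31 ± 0.38 (SD, n = 4) to 8.62 ± 0.32 (SD, n = 4, limma adjusted p = 9.16e-05). In acute versus control Colec12 differed by -1.17 ± 0.22 (SE) and just missed the threshold (limma adjusted p = 0.0512), which it passed in 6 of the 20 alternative settings, with adjusted p from 0.0140 without control replicate 4 to 0.0460 without resolution replicate 2. Msr1, another scavenger receptor of this class, differed by -0.82 ± 0.40 (SE) in resolution versus control (limma adjusted p = 0.183), and by -0.44 without control replicate 4. Ly75, the 1 tested relative of Mrc1, fell by 0.53 ± 0.15 (SE, limma adjusted p = 0.0303), a call lost on leaving out control replicate 1 (0.0731), control replicate 2 (0.0752), resolution replicate 2 (0.0734) or resolution replicate 4 (0.0604).

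The integrin chains Itgax and Itgam pair with the same beta chain, Itgb2, and their genes are neighbours on chromosome 7. Itgax ranged from 15.13 to 15.26 in control, from 14.78 to 15.08 in acute and from 14.84 to 15.25 in resolution arrays. All acute arrays lay below all controls, by a mean of 0.23, which did not pass (limma adjusted p = 0.638, 95% interval of the difference -0.51 to 0.05). Without acute replicate 2 this difference was -0.15. Itgam was 6.21, 6.39, 5.70 and 8.72 in control replicates 1 to 4. It was 6.01, 7.12 and 6.53 in acute and 6.27, 5.85, 6.46 and 6.35 in resolution arrays. Control replicate 4 was the highest of all arrays, and the other 10 lay between 5.70 and 7.12. Itgam was above background in 3 of 4 control, 2 of 3 acute and 3 of 4 resolution arrays, so no fold is given. Its difference from control was -0.20 in acute and -0.52 in resolution, and without control replicate 4 these were 0.45 and 0.13, of opposite sign. None of these passed, and the 95% interval in acute versus control, -1.40 to 0.99, is the widest of the 10 genes. The neutrophil calcium-binding protein gene S100a8 was 12.16 in control replicate 4 and 8.55 to 9.81 in the other controls. Another neutrophil gene, Cxcr2, was 7.97 in control replicate 4 and 7.99 to 8.25 in the other controls. The part of neutrophils in the Itgam level of that array was not tested.

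Itgb2 fell by 0.35 ± 0.10 (SE) in resolution versus control (limma adjusted p = 0.0314), to 14.09 ± 0.12 (SD, n = 4). This call ended with the replicate block (0.0562), when only the groups compared were fitted (0.0548) and on leaving out control replicate 1 (0.0768), 2 (0.0578) or 3 (0.0697), or resolution replicate 2 (0.0578) or 3 (0.0899). Itgal, the alpha chain of LFA-1, differed by -0.01, with a 95% interval of -0.32 to 0.30.

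Car4 and Chil3 complete the set. Car4, a membrane-anchored carbonic anhydrase, ranged from 14.97 to 15.76 in control, from 15.41 to 15.54 in acute and from 15.41 to 15.77 in resolution arrays. Control replicate 4 held the highest control value. Resolution differed from control by 0.25, with a 95% interval of -0.12 to 0.62, and by 0.41 without control replicate 4 (limma adjusted p = 0.0648). It differed by 0.15 without control replicate 1 or control replicate 3 and by 0.16 without resolution replicate 2. Acute and control differed by 0.20, and by 0.36 without control replicate 4, 0.10 without control replicate 1 and 0.099 without control replicate 3. Chil3, the chitinase-like lectin Ym1 that macrophages secrete in abundance, ranged from 16.74 to 16.96 over all 11 arrays. Its difference from control was -0.05 in acute and 0.01 in resolution, with an interval of -0.21 to 0.22 for the latter. Without control replicate 4 these were -0.021 and 0.039. It ranked between 68 and 110 by intensity among the 28846 clusters of an array, and the highest value of all arrays was 18.76. Whether the signals of bright clusters were compressed was not tested. Chil4, its neighbour and close copy, differed between resolution and control by -0.24, with an interval of -0.53 to 0.05. Of 9 tested relatives of Car4 1 rose and 3 fell in resolution versus control, beside 9.60% and 9.0% of all genes tested. Among those that fell, Car7, named after its values were seen, was below background on all 11 arrays. Its call (limma adjusted p = 0.0281) ended in several alternatives, among them without control replicate 2 (0.0812). Car11, named after its values were seen, rose by 0.94 ± 0.29 (SE, limma adjusted p = 0.0408), a call that ended in 9 of the 20 alternatives, with adjusted p up to 0.102 without control replicate 4. Car11 was near background, above it on 3 of 4 control, 1 of 3 acute and 4 of 4 resolution arrays. Car13 fell by 1.18 ± 0.23 (SE) in resolution versus control (limma adjusted p = 0.00316). Car5b, a mitochondrial carbonic anhydrase, fell by 0.45 ± 0.13 (SE, limma adjusted p = 0.0340), a call that ended with the replicate block (0.0548) and on leaving out control replicate 1 (0.0708) or 2 (0.0960), or resolution replicate 1 (0.0720) or 4 (0.0839).

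A wider list of alveolar macrophage genes was set beside the 10. It holds 32 genes of lineage regulation, lipid handling and surface or lysosomal function, of which 29 had a cluster and 28 were tested. In acute versus control 0 of 28 rose and 0 fell by limma, 1 had an unadjusted p under 0.05, and the median difference was -0.09. That gene was F7, coagulation factor VII, at -0.24 ± 0.11 (SE, limma adjusted p = 0.520). The count was 0 under each of the 20 alternative settings as well. In resolution versus control 6 of 28 rose, 7 fell and 15 did not pass, beside 9.60% and 9.0% of all genes that rose and fell, with a median difference of 0.01, beside 0.00 over all genes. In resolution versus acute 5 rose and 5 fell, beside 7.77% and 6.69% of all genes, with a median of 0.13.

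Abcg1 and Cidec had the largest rises of the list on day 30. Abcg1, which exports cholesterol, rose 2.68-fold from 12.78 ± 0.28 to 14.20 ± 0.16 (SD, n = 4 each, limma adjusted p = 6.90e-05). Cidec, a lipid droplet protein, rose 2.52-fold from 10.28 ± 0.37 to 11.62 ± 0.10 (SD, n = 4 each). Perp, a membrane protein of cell junctions, rose 1.85-fold. Pparg, the nuclear receptor that drives alveolar macrophage development, rose by 0.75 ± 0.12 (SE) against control and by 0.84 ± 0.13 (SE) against acute. All 4 resolution arrays of Pparg, at 13.54 to 14.02, lay above the other 7, at 12.90 to 13.14. Fabp4 and Ctsk had the largest falls. Fabp4, a fatty acid binding protein, fell 2.29-fold from 16.68 ± 0.16 to 15.49 ± 0.22 (SD, n = 4 each, limma adjusted p = 7.79e-05). Ctsk, the lysosomal protease cathepsin K, fell 2.21-fold. Slc39a2, a zinc importer, fell 1.80-fold against control. Its fall against acute (limma adjusted p = 0.0346) ended in 7 of the 20 alternative settings, with adjusted p up to 0.155 without acute replicate 1. The other 6 genes that passed against control, named after their values were seen, were Krt79, Fabp1 (a fatty acid binding protein, 0.55) among those that rose and Fabp5 (a further fatty acid binding protein, -0.80), Lgals3 (galectin 3, -0.41), Atp6v0d2 (a proton pump subunit, -0.40) and Csf2rb among those that fell. Csf2rb, the signalling chain of the GM-CSF receptor, differed by -0.35 (limma adjusted p = 0.0438), and its call ended in 13 of the 20 alternatives, with adjusted p up to 0.104 without control replicate 3. Abcg1, Cidec, Fabp4, Ctsk, Pparg and Perp passed in resolution versus control and in resolution versus acute under each of the 20 alternatives.

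**Figure D4:**
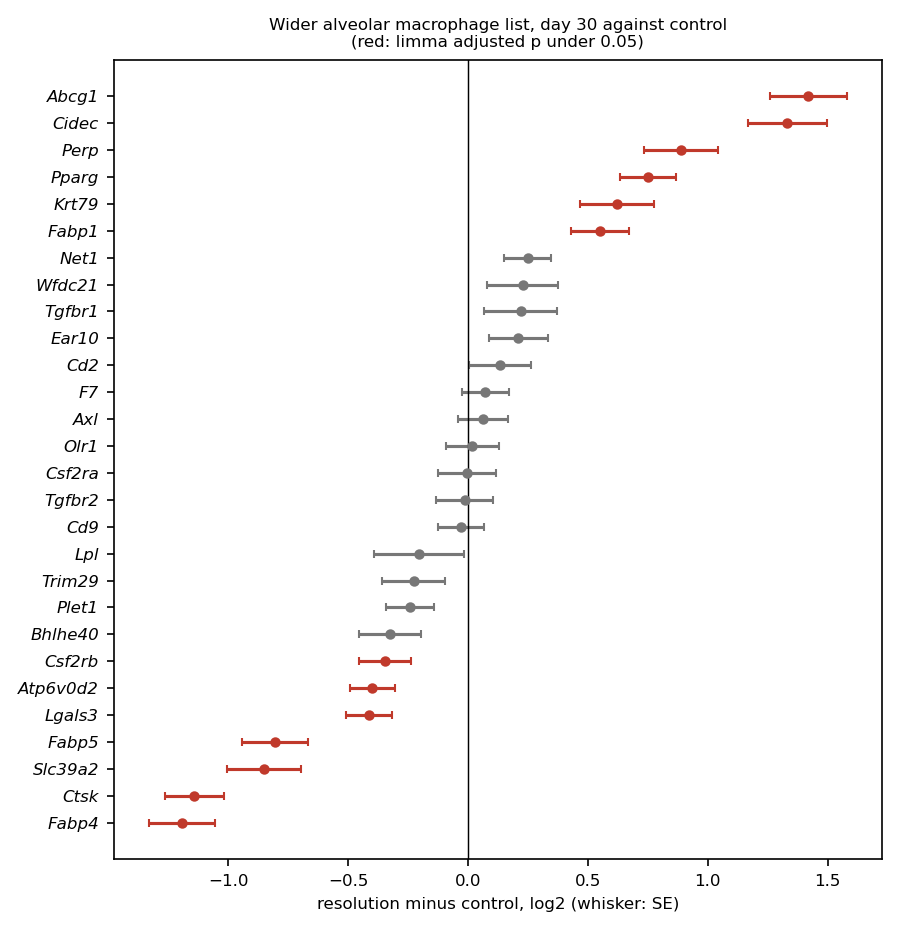
Difference between resolution and control on the log2 scale for the 28 tested genes of the wider alveolar macrophage list, ordered by size, with SE; red points had a limma adjusted p under 0.05. Abcg1 at 1.42 and Cidec at 1.33 head the 6 that rose, and Fabp4 at -1.20 and Ctsk at -1.14 are the lowest of the 7 that fell.

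Markers of monocytes and interstitial macrophages were measured beside these identity changes. In resolution versus control 2 of 8 tested interstitial macrophage markers rose, C1qa by 1.51 ± 0.27 (SE) and Apoe by 0.71 ± 0.18 (SE), and 1 fell, Tmem119 by 0.55 ± 0.16 (SE). Over all genes tested, 9.60% rose and 9.0% fell in that comparison. The call of Apoe ended without resolution replicate 3 (limma adjusted p = 0.0502), and that of Tmem119 with the replicate block (0.0556) and on leaving out any 1 of 5 arrays, control replicate 2 (0.0651) or 3 (0.0780) and resolution replicate 1 (0.0555), 2 (0.0710) or 3 (0.0755). C1qa, a chain of complement C1q, also rose in acute versus control, by 1.88 ± 0.29 (SE, limma adjusted p = 0.0201), where no identity gene passed. Leaving out control replicate 1 (0.0791), control replicate 2 (0.0557), acute replicate 2 (0.121) or acute replicate 3 (0.0978) ended that call. The mean level of the 10 interstitial markers on the array was 6.38 to 6.63 in resolution, 6.52 to 6.76 in acute and 6.06 to 6.25 in control arrays, and their summed intensity was 1629 to 2509, 1734 to 2693 and 1360 to 1572. Cd163, Lyve1, Folr2 and Cx3cr1 were below background on all 11 arrays. Of 4 tested monocyte markers 1 rose, Ccr2, by 0.76 ± 0.21 (SE), and it was above background on 3 of 4 resolution arrays and on no other array. Its call (limma adjusted p = 0.0228) was lost on leaving out control replicate 3 (0.0659), control replicate 4 (0.0599), resolution replicate 2 (0.0654) or resolution replicate 4 (0.0596). Ly6c2, which defines classical monocytes, was below background on all 11 arrays. The mean of the 6 monocyte markers on the array was 6.83 to 6.97 in resolution, 7.10 to 7.61 in acute and 6.70 to 7.09 in control arrays, and their summed intensity, mostly that of Fn1, was 41373 to 50892, 31086 to 32751 and 32420 to 40008. The part of these cells in the changes of Krt19, Bhlhe41 and Ear6 was not tested.

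The genes most like the 3 that changed were found by the smallest root mean square (RMS) difference of log2 levels over the 11 arrays, each gene centred on its own mean. For Krt19, whose own SD over the arrays was 0.97, they were Tlr5, the flagellin receptor (RMS difference 0.17), and Pdgfc, a growth factor (0.19). Tlr5 stood at 8.62 ± 0.34 (SD, n = 4) in control, 8.36 ± 0.08 (SD, n = 3) in acute and 10.61 ± 0.09 (SD, n = 4) in resolution. For Bhlhe41, with an SD of 0.70, they were Sqstm1, the autophagy adaptor p62 (0.15), and Arg2, the mitochondrial arginase (0.18). Sqstm1 stood at 16.69 ± 0.16 (SD, n = 4), 16.52 ± 0.08 (SD, n = 3) and 15.48 ± 0.19 (SD, n = 4) in the same order. For Ear6, with an SD of 0.73, they were Car13 (0.18) and Zdhhc18, a palmitoyl transferase (0.24). Car13 was 9.66 in control replicate 4 and 8.41 to 8.66 in the other controls. The choice by likeness used that array, so the high value that Car13 shares there with Ear6 is part of the choice.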

How the data were processed

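RNA of 11 lavage samples was hybridised to Affymetrix arrays, 1 per sample. The deposited values are linear intensities that the authors made with Affymetrix Expression Console, per the submitters' processing notes; the sources used here do not give the summary algorithm or genome build. Of 28846 clusters 19572 had 1 gene symbol from the platform annotation. The cluster with the highest mean stood for a symbol. Values were used as log2(value + 1), and a gene was kept where at least 3 of 11 arrays exceeded that array's 40th percentile, which left 12143 genes and all 10 members. Group means were fitted to all 11 arrays together, with no block, by limma 3.58.1 (R 4.3.3), and two-sided tests used Benjamini-Hochberg adjustment over all genes and a threshold of 0.05. The p-values measure the spread between these samples. The procedure was tested on simulated data. No pair of arrays was identical, and the number of arrays limits precision.

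Members and lists were chosen with earlier results of these data known. The genes named are the 10 members and up to 6 wider list genes per comparison (largest passing difference, otherwise smallest p). Itgb2, Bhlhe40, up to 2 brightest relatives per member and the 2 nearest genes of each changed member are also named. Of most marker lists the brightest or passing genes are named, though not Mmp8, the brightest neutrophil marker. The dendritic, T and NK and B cell lists were left out above. In resolution versus control 1 of 5 tested dendritic markers rose (Batf3 differed by 1.58) and 1 of 3 tested T and NK markers fell (Cd3d differed by -0.72). These counts stand beside 9.60% and 9.0% of all genes tested, and 0 B cell markers were tested. Further names were chosen after their values were seen, among them Siglece, Krt8, Krt18, S100a8, Ear14 and the background genes of the marker lists. Upstream windows came from RefSeq (GRCm38.p6), and 9 of 10 members matched. The alternatives were array scaling, pseudocount, filter, cluster choice, groups in the fit, replicate block, intensity trend and leaving out each array.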

Additional observations from a re-analysis of the deposited data

Results flagged for a closer look

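Among 20 groups of 4 arrays, 10 genes in 2 groups each, 3 held 1 array far from the rest by Dixon's criterion, and chance marks about 1 group in 20. Siglecf in control replicate 4 was 14.51, with the nearest control at 15.02. Mrc1 in resolution replicate 2 was 16.37, with the nearest at 16.49. Car4 in resolution replicate 2 was 15.77, with the nearest at 15.43.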

How the results depend on the processing

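Of 597 differences of the 10 genes recomputed under 20 alternatives, 571 kept direction and side of the threshold, 0 lost a call, 4 gained one (Ear6, resolution versus acute) and 22 changed sign, none of them a difference that passed. With each array scaled to the common median, Siglecf in acute versus control was 0.023, Chil3 -0.037 in resolution versus control and -0.0082 in resolution versus acute, and Car4 -0.018 in the latter; quantile normalization gave Siglecf 0.026 in acute versus control. Leaving out 1 array gave ranges in acute versus control of -0.14 to 0.054 for Siglecf and -0.55 to 0.45 for Itgam, in resolution versus control of -0.87 to 0.13 for Itgam and -0.016 to 0.048 for Chil3, and in resolution versus acute of -0.23 to 0.15 for Marco and -0.038 to 0.094 for Car4. Over all genes 29 passed in acute versus control, 16 with only those groups fitted, 51 with an intensity trend and 5 to 29 with 1 array left out, the lowest without acute replicate 2; without acute replicate 3 there were 9, without control replicate 1 13 and without control replicate 2 18. In resolution versus acute 1065 to 1846 passed with 1 array left out, the lowest without acute replicate 1. The causes were not tested. Signals near background limit Itgam.

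Replicate numbers did not pair the samples: deviations of same-numbered arrays correlated between -0.12 and 0.09 over 10 pairs. With the replicate block 25 genes passed in acute versus control, 2120 in resolution versus control and 1455 when resolution was set against acute, Krt19 differed by 1.78 in resolution versus control (limma adjusted p = 0.000122), Itgam by 0.14 in acute versus control and Car4 by -0.016 in resolution versus acute.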
